A study of Mus musculus with 6 samples.

Results

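The genes examined here are the FoxO transcription factors Foxo1, Foxo3 and Foxo4 and 7 ubiquitin ligase genes associated with muscle wasting, namely Fbxo32, Trim63, Fbxo30, Fbxo31, Fbxo21, Traf6 and Nedd4. They were chosen by name, and all 10 were found, with 1 row each, among the 43346 genes of the deposited table. All 10 also passed the filter on low counts that left 15583 genes for testing. RNA was sequenced from the gastrocnemius, a calf muscle, of 6 male mice aged 6 months, 1 library per mouse. Every mouse carried Vdr alleles with exon 3 flanked by loxP sites and the transgene Tg(ACTA1-cre/Esr1*)2Kesr, which encodes a Cre recombinase that tamoxifen switches on and that the promoter of human skeletal actin expresses (Vdrfl/fl.actin iCre). The knockout group was 3 of these mice injected with tamoxifen at 100 mg/kg for 5 days, and the vehicle group was 3 mice injected for 5 days with 10% ethanol in corn oil. All were fed a diet with vitamin D3 at 3.4 IU/g and 0.81% calcium. Muscle was collected after strength and glucose tests that began 10 days after the last injection. This Cre acts in muscle fibres and leaves the Vdr of other cells in place. Mice given tamoxifen without Cre were not analysed here, so the deletion, Cre activity and tamoxifen itself cannot be told apart.

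FoxO factors are forkhead transcription factors that the kinase Akt phosphorylates and holds in the cytoplasm when insulin or growth factor signalling is active. When that signalling falls, as in fasting, denervation or glucocorticoid excess, they enter the nucleus and activate genes of protein breakdown. Among these are Fbxo32 (atrogin-1) and Trim63 (MuRF1), muscle-restricted ubiquitin ligases whose transcripts serve as markers of atrophy. Much of FoxO regulation is by phosphorylation and acetylation of the proteins, which RNA counts do not measure.

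The libraries held 30486874 to 39909535 counted reads, and between 298 and 53536 of them came from a member gene. Levels are given as CPM, counts scaled to library size with the trimmed mean of M values (TMM), or as the deposited FPKM, which also divides by gene length. The 10 skeletal muscle markers, among them Acta1, Ckm and Myh4, summed to between 111276 and 220069 CPM, as for skeletal muscle. They do not tell the gastrocnemius from other muscles. Their sum was lowest in knockout replicate 2, and 3 of the 10 had a higher and 7 a lower estimate in knockout (median log2 fold change -0.33). Vdr, the targeted gene, had 52, 27 and 40 reads in the knockout libraries, and vehicle libraries had 46, 48 and 61, so that the groups overlapped (log2 fold change -0.37, SE 0.37, edgeR adjusted p = 0.848). A count over the whole gene does not resolve exon 3, so it does not check the deletion. In edgeR's test 0 of 15583 genes (0%) passed the adjusted threshold of 0.05, while 1159 (7.44%) had an unadjusted p below 0.05. Slow fibre markers differed widely among mice: 12 of 12 had a higher estimate in the knockout group, and their summed level was 6228, 32937 and 10395 CPM in knockout replicates 1, 2 and 3 and 10207, 1497 and 1243 CPM in the vehicle replicates. Of 9 macrophage markers tested, 8 had a higher estimate in knockout, with summed levels of 49.96, 153 and 146 CPM in knockout and 70.4, 56.0 and 39.0 CPM in vehicle libraries. All 8 adipocyte markers had a higher estimate, with summed levels, mostly Car3, of 3172 to 3906 CPM in knockout and 2639 to 3154 CPM in vehicle libraries. The groups overlapped when each adipocyte marker counted equally, as the list mean of log2 CPM centred per gene over the 6 libraries. Knockout libraries then ran from -0.27 (replicate 3) to 1.22 (replicate 2), and vehicle libraries from -1.31 (replicate 3) to -0.23 (replicate 2). In edgeR an unadjusted p below 0.05 was found for 7 of 9 macrophage, 7 of 8 adipocyte and 3 of 12 slow fibre markers. All of these were higher in knockout, beside 7.44% of all genes in either direction. Over each whole list the median log2 fold change was 1.23, 1.38 and 1.86, in that order. In edgeR 0 of these markers passed the adjusted threshold, while DESeq2 called the adipocyte marker Adig (adjusted p = 0.0273). None of the markers tested was at 0 in any library. In bulk tissue fewer cells of a type cannot be told apart from less RNA per cell.

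Per gene length, Trim63 was by far the most abundant of the 10 members. Its deposited FPKM averaged 262 over the 6 libraries, from 121 to 506, which was 6.07 times the mean of the next gene, Nedd4, and above it in 6 of 6 libraries. Nedd4, Fbxo32 and Foxo4 followed with means of 43.1, 38.2 and 28.5 FPKM. Neighbours in this group had overlapping ranges, and Nedd4 exceeded Fbxo32, and Fbxo32 exceeded Foxo4, in 4 of 6 libraries each. Fbxo31 at 18.2 FPKM and Foxo1 at 16.9 FPKM were next and overlapped, whereas Foxo4 lay above Fbxo31 in 6 of 6 libraries. Foxo3 averaged 5.22 FPKM, below Foxo1 in 6 of 6 libraries. Fbxo21, Traf6 and Fbxo30 were the least abundant, at 3.60, 2.57 and 2.01 FPKM. Fbxo21's place rests on its listed length of 3909 bases. At its 5545 exonic bases in GENCODE M21 the same values would average 2.54 FPKM, below Traf6 and overlapping it. Traf6 exceeded Fbxo30 in 6 of 6 libraries although their ranges overlapped.

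**Figure D1:**
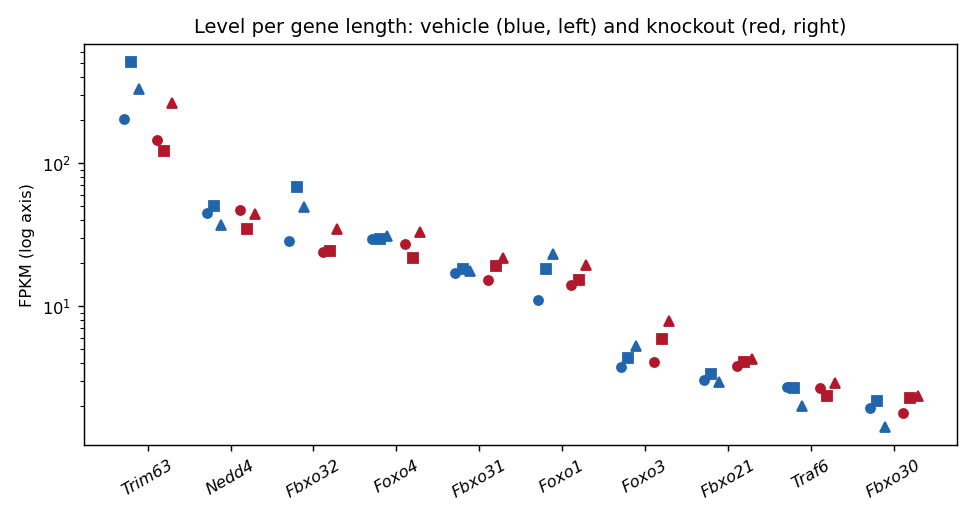
Deposited FPKM of the 10 member genes (log axis), ordered by mean level, with vehicle libraries in blue on the left and knockout libraries in red on the right (circle, square and triangle for replicates 1, 2 and 3). Trim63 lies between 121 and 506 FPKM, above every value of the other 9 genes.

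The comparison of knockout with vehicle asks whether the transcripts of these factors and ligases differ between adult mice in which loss of Vdr from muscle fibres was induced and mice given vehicle. Of the 10 members, 0 passed the adjusted threshold of edgeR's quasi-likelihood test, against 0% of all genes. Fbxo32 and Trim63 had the largest estimated differences, both lower in knockout, and were the only members with an unadjusted p below 0.05, 2 of 10 beside 7.44% of all genes. Foxo1, Foxo3, Foxo4, Fbxo30, Fbxo31, Traf6 and Nedd4 also overlapped between the groups and had larger p-values. Fbxo21 was the 1 member whose groups did not overlap, beside 12.3% of all genes. Over the 10 members 4 estimates were higher and 6 lower, with a median log2 fold change of -0.08, beside 8246 higher and 7337 lower and a median of 0.02 over all genes tested. The members' median was 0.0094 with library totals alone (5 higher), 0.03 with the slow fibre markers as a covariate (8 higher) and 0.03 without knockout replicate 2 (6 higher). The share of all genes with a higher estimate was 52.9%, and 65.3% when libraries were scaled by their totals alone.

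Among the transcription factors, Foxo1 (ENSMUSG00000044167, chromosome 3 from 52268336 to 52353221 in mm10), a regulator of both metabolic and atrophy genes, stood at 135, 117 and 157 CPM in knockout replicates 1, 2 and 3. In vehicle replicates 1, 2 and 3 it stood at 99.0, 160 and 211 CPM. All 3 knockout values fell inside the vehicle range. Its estimated log2 fold change of -0.20 had an SE of 0.27 and a 95% interval from -0.79 to 0.40, with an edgeR adjusted p of 0.889. It was -0.45 without vehicle replicate 1, 0.07 without vehicle replicate 3 and 0.41 with slow fibre markers as a covariate.

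Foxo3 (ENSMUSG00000048756, chromosome 10 from 42181841 to 42276755), the FoxO factor most often tied to Fbxo32 induction and autophagy, stood at 34.1, 39.4 and 55.9 CPM in the knockout replicates and at 29.8, 33.9 and 41.9 CPM in the vehicle replicates. Knockout replicate 3 was the highest of the 6 libraries, and the other knockout libraries lay inside the vehicle range. For Foxo3 edgeR gave a log2 fold change of 0.29 with an SE of 0.22 (95% interval from -0.20 to 0.78) and an adjusted p of 0.789. Without knockout replicate 3 it was 0.06.

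Foxo4 (ENSMUSG00000042903, chromosome X from 101254528 to 101260873) was the most abundant FoxO transcript per length. It stood at 105, 66.7 and 107 CPM in the knockout replicates and at 106, 104 and 112 CPM in the vehicle replicates. Knockout replicate 2 stood apart at the low end, and the other 5 libraries lay within 104 to 112 CPM. The edgeR estimate was a log2 fold change of -0.21 with an SE of 0.20 (95% interval from -0.66 to 0.25) and an adjusted p of 0.841, and it was -0.02 without knockout replicate 2. Foxo4 made up 50.5% to 66.5% of the summed FPKM of the 3 FoxO genes, Foxo1 24.9% to 39.3% and Foxo3 8.46% to 13.7%. Foxo3's share was 8.99%, 13.7% and 13.1% in the knockout replicates and 8.59%, 8.46% and 8.94% in the vehicle replicates. The lowest knockout share, 8.99%, was barely above the highest vehicle share, 8.94%, and Foxo3's own CPM overlapped between the groups. How often such shares separate for other genes was not tested. The summed FoxO level itself was 45.6, 43.0 and 59.9 FPKM in knockout and 44.1, 51.8 and 59.4 FPKM in vehicle libraries, which overlapped.

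**Figure D2:**
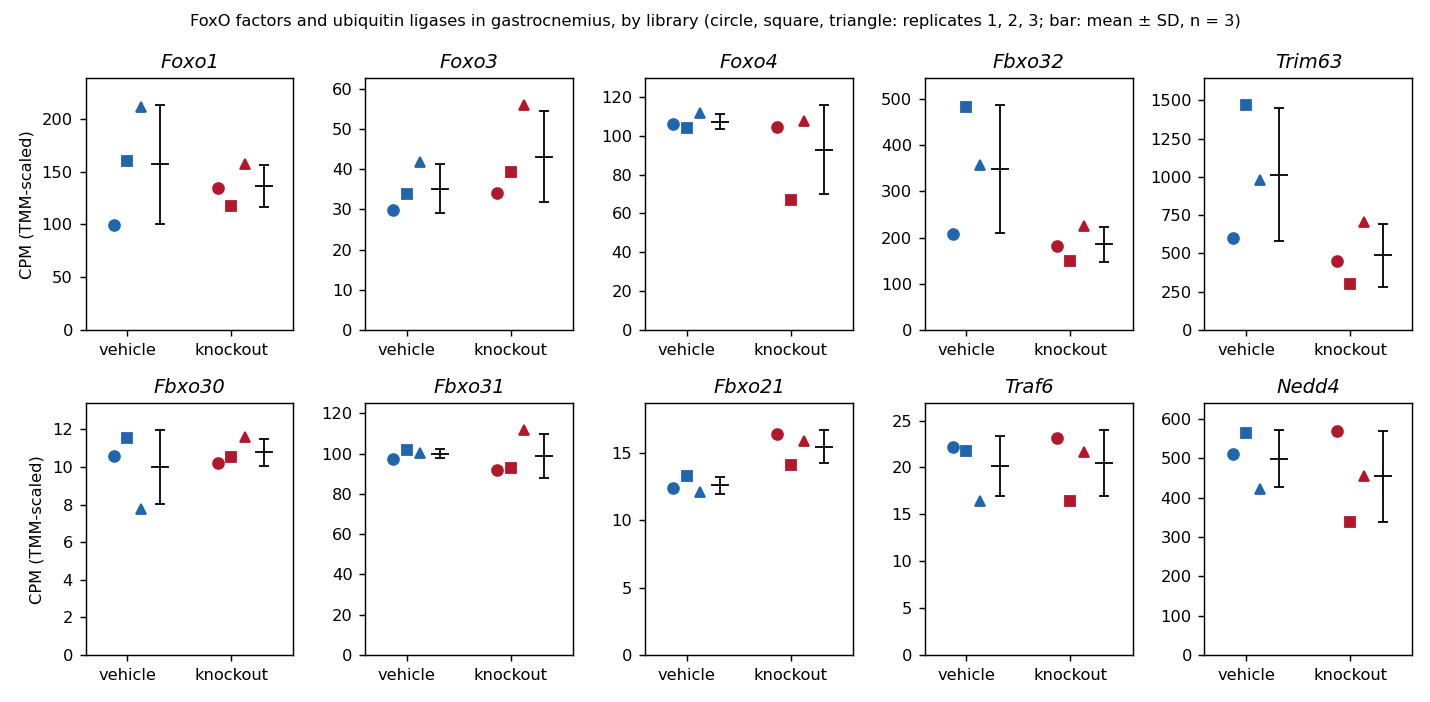
TMM-scaled CPM of each member in the 3 vehicle (blue) and 3 knockout (red) libraries, with replicates 1, 2 and 3 as circle, square and triangle and bars for mean ± SD (n = 3), each axis starting at 0. Fbxo32 and Trim63 are highest in vehicle replicates 2 and 3, and Fbxo21 is the panel in which the groups do not overlap.

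Fbxo32 (ENSMUSG00000022358, chromosome 15 from 58175879 to 58214892) encodes the F-box protein that brings substrates such as MyoD to a Skp1-cullin ligase. It stood at 182, 149 and 225 CPM in knockout replicates 1, 2 and 3 and at 207, 482 and 357 CPM in vehicle replicates 1, 2 and 3. Vehicle replicates 2 and 3 were well above the other 4 libraries, which all lay between 149 and 225 CPM. Knockout replicates 1 and 2 lay below every vehicle library, and knockout replicate 3 lay above vehicle replicate 1. The means were 185 ± 38.3 CPM in knockout and 348 ± 138 CPM in vehicle (SD, n = 3 each). On the log2 scale the difference was -0.91 (SE 0.30, 95% interval -1.59 to -0.23), a level 46.8% lower, with an unadjusted edgeR p of 0.0145 and an adjusted p of 0.628. The smallest adjusted p over 18 alternative settings was 0.155, from DESeq2, and the largest 0.9999.

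Trim63 (ENSMUSG00000028834, chromosome 4 from 134315120 to 134329629) encodes a RING-finger ligase of the sarcomere that marks myosin and other thick filament proteins for the proteasome. Its levels were 452, 303 and 707 CPM in the knockout replicates and 599, 1467 and 978 CPM in the vehicle replicates. As for Fbxo32, vehicle replicates 2 and 3 were highest, knockout replicates 1 and 2 lowest, and knockout replicate 3 and vehicle replicate 1 lay between them with the knockout library above. The means were 487 ± 204 CPM and 1015 ± 435 CPM (SD, n = 3 each). On the log2 scale the difference was -1.06 (SE 0.39, 95% interval -1.93 to -0.19), a level 52.0% lower, with an unadjusted edgeR p of 0.0226 and an adjusted p of 0.640. Adjusted p over the 18 alternatives ran from 0.163 to 0.9999. Trim63 was also the most variable member, with a 4.84-fold range over the 6 libraries, followed by Fbxo32 at 3.24-fold, while the other 8 members ranged between 1.21-fold and 2.13-fold.

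The estimates of both ligases rested in part on vehicle replicate 2, the library with the highest level of each. Without it the log2 fold change was -0.62 (SE 0.30) for Fbxo32 and -0.71 (SE 0.38) for Trim63, and the unadjusted p in edgeR was 0.0655 and 0.0959. Trim63 also had an unadjusted p above 0.05 without knockout replicate 1 (0.0561) and without knockout replicate 2 (0.0635). Without vehicle replicate 1, the lowest vehicle library, they were -1.18 (SE 0.26) and -1.33 (SE 0.38). In all 18 alternatives both estimates stayed below 0 and 0 passed the adjusted threshold.

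**Figure D3:**
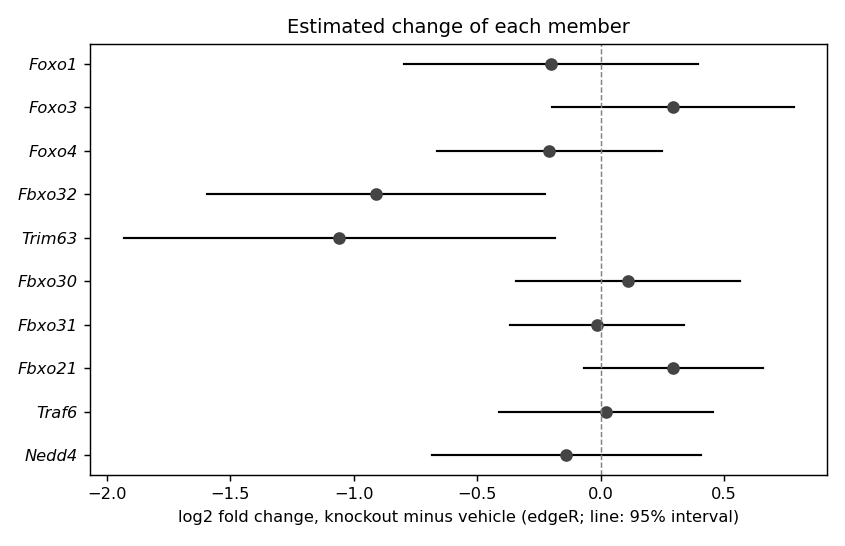
Log2 fold change of each member, knockout minus vehicle, from edgeR, with lines for the 95% interval. The intervals of Fbxo32 (-1.59 to -0.23) and Trim63 (-1.93 to -0.19) lie below 0 before adjustment for multiple testing, and the other 8 include 0.

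Fbxo32 and Trim63 varied together over the 6 libraries. On TMM-scaled CPM their ranking over the 6 libraries was identical, from knockout replicate 2 at the bottom through knockout replicate 1, vehicle replicate 1, knockout replicate 3 and vehicle replicate 3 to vehicle replicate 2 at the top. On log2 CPM the Pearson r was 0.975 and the Spearman rho 1.00 (n = 6, exact permutation p = 0.00278 for each, the smallest that 6 libraries can give two-sided, adjusted p = 0.0194 over 7 pairs). On the log2(FPKM + 0.1) scale knockout replicates 1 and 2 changed places for Fbxo32, with r = 0.971 (exact permutation adjusted p = 0.0389) and rho = 0.943 (exact permutation adjusted p = 0.117). Without vehicle replicates 2 and 3, the 2 libraries farthest from the median, r was 0.9998 over 4 libraries, too few to test. Both ligases had lower estimates in knockout, and the permutations took no account of group. A shared group difference therefore enters these correlations, and within a group of 3 no correlation can be given. The ratio of Trim63 to Fbxo32 FPKM was 6.06, 4.96 and 7.66 in the knockout replicates and 7.06, 7.43 and 6.69 in the vehicle replicates, which overlapped.

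The FoxO transcripts tracked the ligases less closely, and none of the 6 pairs passed. Foxo1 had r = 0.674 with Fbxo32 and 0.626 with Trim63 (n = 6, exact permutation p = 0.156 and 0.178, adjusted p = 0.249 each), with a Spearman rho of 0.771 for each (exact permutation p = 0.103, adjusted p = 0.24). Without vehicle replicates 1 and 3, r was 0.814 and 0.914. Foxo4 had r = 0.566 and 0.691 (exact permutation p = 0.117 and 0.125, adjusted p = 0.249 each), with a rho of 0.429 for each (exact permutation p = 0.419, adjusted p = 0.587). Those relations turned to -0.462 and -0.301 without knockout replicate 2 and vehicle replicate 3 and so rested on these libraries. Foxo3 had r = -0.0369 and 0.0164 (exact permutation p = 0.986 and 0.975, adjusted p = 0.986 each) and a rho of 0.0286 for each (exact permutation p and adjusted p = 1.00). Whether any of these correlations differs from that of Fbxo32 with Trim63 was not tested.

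Slow fibre markers were low in the libraries where the ligases were high. Taken as log2 CPM minus the 6-library mean, the marker list averaged 0.05 for knockout replicate 1, 2.37 for replicate 2 and 0.75 for replicate 3, and it averaged 0.73, -1.80 and -2.10 for vehicle replicates 1, 2 and 3. The libraries with the fewest slow fibre transcripts, vehicle replicates 2 and 3, had the most Fbxo32 and Trim63, and the library with the most, knockout replicate 2, had the least. The order was not fully opposite, since knockout replicate 1 had fewer slow fibre transcripts than knockout replicate 3 and vehicle replicate 1 and also less of both ligases. Knockout replicate 3 and vehicle replicate 1, which had nearly the same slow fibre mean, held 225 and 207 CPM of Fbxo32 and 707 and 599 CPM of Trim63. With the slow fibre mean as a covariate in edgeR, the log2 fold change was -0.23 (SE 0.32) for Fbxo32 and -0.25 (SE 0.40) for Trim63, and the adjusted p was 0.9999 for each. With the macrophage mean as a covariate the values were -0.83 (SE 0.45) and -1.09 (SE 0.57). Since the slow fibre mean itself was higher in knockout, its part and that of the treatment cannot be told apart in 6 libraries.

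**Figure D4:**
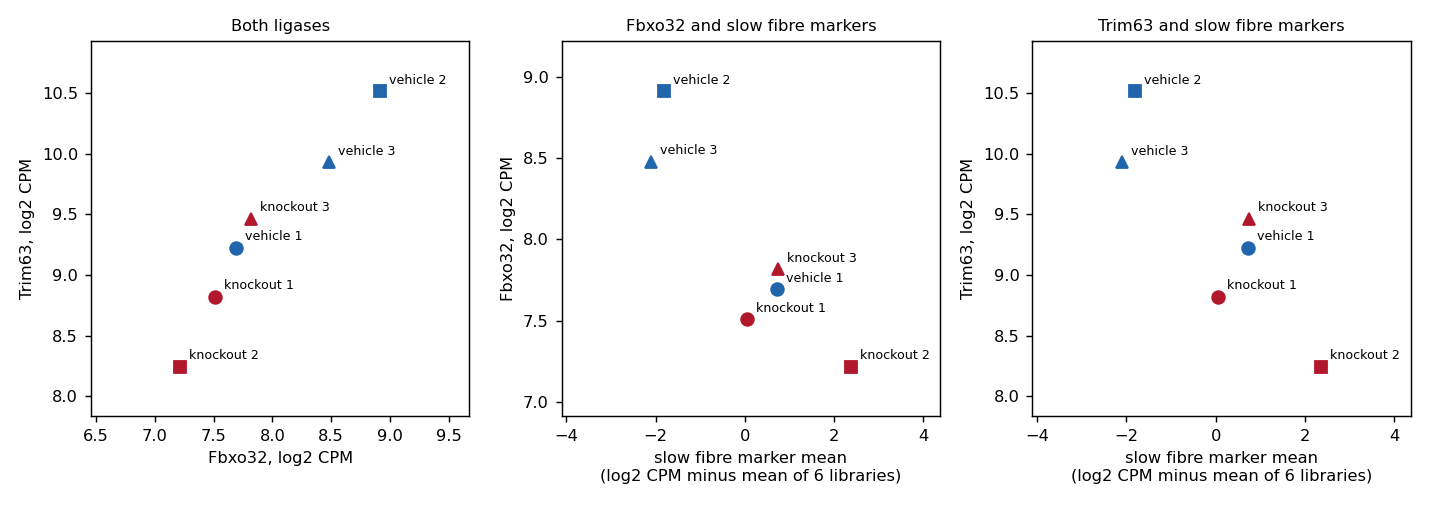
Each point is a library (vehicle in blue, knockout in red). The left panel sets log2 CPM of Trim63 against Fbxo32 (r = 0.975), and the middle and right panels set each ligase against the mean of the 12 slow fibre markers, where vehicle replicates 2 and 3 lie at the upper left and knockout replicate 2 at the lower right.

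**Figure D5:**
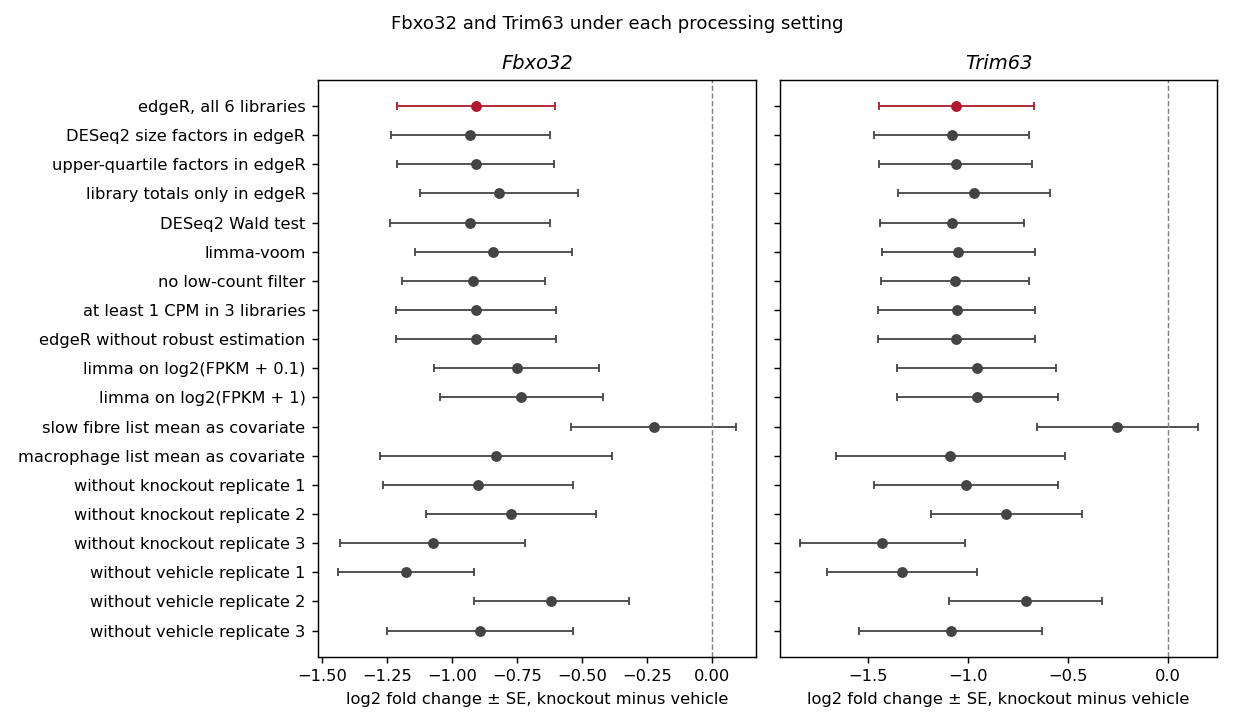
Log2 fold change ± SE of Fbxo32 and Trim63, knockout minus vehicle, with all 6 libraries in edgeR (red) and under each of 18 alternatives (grey). All estimates are below 0, and those nearest to 0 come from the fit with slow fibre markers as a covariate, -0.23 and -0.25.

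The promoter of Trim63 is shown because that gene had the largest estimated difference and is a textbook FoxO and glucocorticoid receptor target. The promoter of Fbxo21 is shown beside it as that of the member whose groups did not overlap. Each runs from 250 bases before to 50 bases after the RefSeq start in GRCm38.p6, 5′ to 3′ on the gene's strand, chr4:134314870-134315169 for Trim63 and chr5:117976520-117976819 for Fbxo21, both on the plus strand. Capitals mark a match to the forkhead motif GTAAACA on either strand or to the inner bases of the palindromic glucocorticoid response element, GAACA and TGTTC with 3 bases between them.
Trim63: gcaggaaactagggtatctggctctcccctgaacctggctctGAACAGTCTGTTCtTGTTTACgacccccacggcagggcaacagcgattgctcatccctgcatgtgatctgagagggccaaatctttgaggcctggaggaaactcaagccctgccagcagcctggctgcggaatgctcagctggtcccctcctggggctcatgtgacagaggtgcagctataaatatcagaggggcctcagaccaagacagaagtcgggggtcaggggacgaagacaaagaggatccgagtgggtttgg
Fbxo21: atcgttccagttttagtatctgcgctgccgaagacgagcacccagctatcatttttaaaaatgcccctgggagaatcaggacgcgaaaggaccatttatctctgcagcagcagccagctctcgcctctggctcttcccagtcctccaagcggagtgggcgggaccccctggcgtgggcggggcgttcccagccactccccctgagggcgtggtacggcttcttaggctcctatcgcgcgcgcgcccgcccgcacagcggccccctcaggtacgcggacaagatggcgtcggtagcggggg
Promoters were found for 8 of the 10 members (9 promoters, with 2 for Nedd4), and Fbxo32 and Foxo4 had none in the RefSeq table. Trim63 was the only member of the 8 with GTAAACA in this window, on the minus strand from 194 to 188 bases before the start, and 3.65% of all 32851 promoters hold it. The glucocorticoid motif match in Trim63 ends 1 base before the forkhead match. That motif was added after the sequence was seen. It occurs in 0.0578% of promoters, while the longer form, AGAACA and TGTTCT with 3 bases between them, searched first, occurs in 0.00913% and in 0 of the 9 member promoters. The shorter forkhead core TGTTT, which overlaps GTAAACA on its other strand, was found in Foxo1, Trim63, Traf6 and both Nedd4 promoters, and in 50.5% of all promoters. Trim63 was also the only member with TATAAA, found in 13.6% of all promoters. The E-box CANNTG was in the promoters of Foxo1, Trim63, Traf6 and Nedd4, and in 72.3% of all. The ratio of observed to expected CpG was 0.289 in the Trim63 promoter and between 0.747 and 1.10 in the other 8 member promoters. These matches describe sequence only, and binding was not measured.

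Among the other ligases, Fbxo21 (ENSMUSG00000032898, chromosome 5 from 117976770 to 118010191), an F-box gene known as SMART in the FoxO programme of denervated muscle, stood at 16.4, 14.1 and 15.9 CPM in the knockout replicates. In the vehicle replicates it stood at 12.4, 13.3 and 12.1 CPM. Every knockout library was above every vehicle library, as in 5.83% of all genes tested, and the lowest knockout value was 14.1 CPM beside a highest vehicle value of 13.3 CPM. Its log2 fold change in edgeR was 0.29 (SE 0.16, 95% interval from -0.07 to 0.66), with an adjusted p of 0.717, and it lay between 0.24 and 0.39 in all 18 alternatives. Its direction was opposite to that of Fbxo32 and Trim63.

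Fbxo30 (ENSMUSG00000047648, chromosome 10 from 11281330 to 11298052), the F-box gene also called MUSA1 that is restrained by BMP signalling, was the scarcest member. It stood at 10.2, 10.5 and 11.6 CPM in knockout and at 10.6, 11.6 and 7.77 CPM in vehicle replicates. The groups overlapped, with vehicle replicate 3 the lowest library, and the log2 fold change was 0.11 (SE 0.20). Fbxo31 (ENSMUSG00000052934, chromosome 8 from 121549440 to 121578806), an F-box gene that also targets cyclin D1, had the narrowest range of the 10 members, 92.0 to 111 CPM. Its means were 98.8 ± 11.01 CPM in knockout and 99.8 ± 2.18 CPM in vehicle (SD, n = 3 each), with a log2 fold change of -0.02 (SE 0.16, 95% interval -0.37 to 0.34). The interval for Fbxo31 therefore holds differences of up to about 0.37 in either direction, smaller than the estimates for Fbxo32 and Trim63.

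Traf6 (ENSMUSG00000027164, chromosome 2 from 101678429 to 101701669), a RING-finger ligase that relays cytokine receptor signals to NF-kB, stood at 23.1, 16.5 and 21.7 CPM in knockout and 22.2, 21.8 and 16.4 CPM in vehicle replicates. Each group held a low library near 16 CPM, knockout replicate 2 and vehicle replicate 3. Between the groups the estimate was 0.02 on the log2 scale (SE 0.19, 95% interval from -0.41 to 0.45). Leaving out knockout replicate 1 gave -0.08, leaving out knockout replicate 3 gave -0.03, and leaving out vehicle replicate 3 gave -0.11. Nedd4 (ENSMUSG00000032216, chromosome 9 from 72662346 to 72749852), a HECT-domain ligase with many membrane protein substrates, was abundant at 569, 338 and 455 CPM in knockout and 512, 564 and 423 CPM in vehicle replicates. Knockout replicates 1 and 2 were the highest and lowest of the 6 libraries. The estimate for Nedd4 was -0.14 on the log2 scale (SE 0.24, 95% interval -0.68 to 0.41), and 0.03 without knockout replicate 2.

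The members sit in a larger pathway, and 0 genes of the lists below passed the adjusted threshold in edgeR. DESeq2, which called 109 of all genes, called Pik3r1 and Bcl6 of these lists, and Myog of the denervation list given last. Pik3r1 and Bcl6 were also called by edgeR without a low-count filter, which called 29 of all genes. Of the listed insulin and Akt signalling genes, which restrain FoxO factors, 10 of 17 had a higher and 7 a lower estimate in knockout. The median log2 fold change was 0.09, or -0.05 without knockout replicate 1 and -0.07 without vehicle replicate 3. In edgeR 3 of the 17 had an unadjusted p below 0.05, beside 7.44% of all genes. Pik3r1, a regulatory subunit of phosphoinositide 3-kinase, was at 1.07 (SE 0.14, edgeR adjusted p = 0.077, or 1.35e-06 in DESeq2 and 0.00819 without the filter). It was higher in 3 of 3 knockout libraries than in any vehicle library. Of the 17 genes, 2 were higher and 1 lower without overlap, beside 5.83% and 6.48% of all genes. Rictor, a subunit of the complex that phosphorylates Akt, was at -0.71 (SE 0.30), and its groups did not overlap in the lower direction, as in 6.48% of all genes. The gap was very small, with knockout replicate 3 at 23.773 CPM and vehicle replicate 1 at 23.845 CPM. Irs2, an insulin receptor substrate that FoxO factors induce, was at -1.09 (SE 0.49), with vehicle replicate 2 the highest library at 114 CPM.

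Other inputs to the ligases, such as the glucocorticoid receptor, TGF-beta and cytokine mediators, had 5 of 16 estimates higher and 11 lower (median -0.11), or 8 and 8 with library totals alone or without knockout replicate 2, and 1 and 15 without knockout replicate 3 (median -0.22). With the slow fibre covariate 9 were higher and 7 lower (median 0.02). In the edgeR fit 3 of the 16 had an unadjusted p below 0.05, beside 7.44% of all genes. Junb, a transcription factor that opposes FoxO3 in muscle, was at -0.71 (SE 0.22). Its groups did not overlap, as for 3 of the 16 genes of the list in either direction, beside 12.3% of all genes. Tnfrsf12a, the TWEAK receptor, was at -0.59 (SE 0.23), Klf15, a glucocorticoid-induced factor that works with FoxO1, at 0.45 (SE 0.18), and the 14-3-3 gene Ywhaz, whose protein holds phosphorylated FoxO in the cytoplasm, at -0.41 (SE 0.21).

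Genes known as FoxO targets in muscle or other tissues did not share a direction: 13 of 24 estimates were higher and 11 lower. Their median was 0.02, and 5 of the 24 had an unadjusted p below 0.05 in edgeR, beside 7.44% of all genes. The median was -0.10 when the covariate was the slow fibre mean and -0.18 when it was the macrophage mean, and with DESeq2 size factors 12 were higher and 12 lower. Bcl6, a transcriptional repressor, was at -1.24 (SE 0.20, edgeR adjusted p = 0.165, or 3.86e-05 in DESeq2 and 0.00546 without the filter), with 41.2 ± 5.84 CPM in knockout and 97.4 ± 19.4 CPM in vehicle (SD, n = 3 each). Sesn1, a stress-induced regulator of mTORC1, had an estimate in the other direction, 0.63 (SE 0.16, edgeR adjusted p = 0.526), with 34.8 ± 4.43 and 22.4 ± 1.15 CPM. Klf15 is a member here too. Sqstm1, the autophagy receptor p62, stood at 485 ± 45.3 CPM in knockout and 665 ± 40.3 CPM in vehicle, a log2 fold change of -0.46 (SE 0.20, edgeR adjusted p = 0.664). The groups of all 4 did not overlap, but these 4 were named for their small p, a choice that favours separate groups. Of the 24 genes in the list, 3 were higher and 3 lower without overlap, beside 5.83% and 6.48% of all genes.

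Of 25 other muscle ligases and ligase adaptors tested, 9 had higher and 16 lower estimates (median -0.10), or 12 and 13 with library totals alone. In edgeR 5 of the 25 had an unadjusted p below 0.05, beside 7.44% of all genes. The median was 0.03, with 14 higher, when the slow fibre mean was a covariate. Leaving out a library moved it from -0.19 (20 lower, without knockout replicate 1) to -0.0020 (14 lower, without knockout replicate 2), and it was -0.0096 without vehicle replicate 2. Asb2, a cullin adaptor that acts on filamin, stood at 293, 275 and 385 CPM in knockout and 435, 596 and 496 CPM in vehicle replicates, a log2 fold change of -0.68 (SE 0.22). The thin filament regulator Klhl40 was at -0.82 (SE 0.27) and Klhl31 at -0.64 (SE 0.27). Smurf1, a HECT ligase acting on BMP signalling, was at 0.59 (SE 0.20), with 18.04 ± 1.16 CPM in knockout and 12.0 ± 2.77 CPM in vehicle (SD, n = 3 each). The edgeR adjusted p was between 0.628 and 0.664 for these 4 genes, and 3 of the 25 listed genes, Asb2, Klhl40 and Smurf1, had groups that did not overlap, near the 12.3% of all genes.

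The shared ubiquitin machinery, which supplies ubiquitin, conjugating enzymes and cullin ligase cores, had 3 of 22 estimates higher and 19 lower, beside 8246 higher and 7337 lower over all genes. The median log2 fold change was -0.21, between -0.29 and -0.13 when a library was left out. With the slow fibre mean as a covariate 13 of 22 were lower and the median was -0.03, and with the macrophage mean 15 were lower and the median was -0.05. Ubb, which encodes ubiquitin, stood at 489.5, 421 and 458 CPM in knockout and 520.3, 645 and 612 CPM in vehicle replicates, a log2 fold change of -0.38 (SE 0.20, edgeR adjusted p = 0.706). It did not overlap between groups. Neither did the conjugating enzyme gene Ube2d2a, at -0.32 (SE 0.16). Cops5, a COP9 signalosome subunit, was at -0.33 (SE 0.19). Of the 22 genes, 8 were lower in knockout without overlap, beside 6.48% of all genes.

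Of 12 genes whose proteins are known as substrates or partners of Fbxo32 or Trim63, 3 had higher and 9 lower estimates. The median was -0.33, or -0.05 without knockout replicate 2. In edgeR 1 of the 12 had an unadjusted p below 0.05, beside 7.44% of all genes. This list shares Acta1, Ckm, Myh4, Tnnt3 and Des with the 10 skeletal muscle markers. Those markers had 3 higher and 7 lower estimates and also a median of -0.33. Since the lists share these genes, their medians are not independent, and whether the shift was particular to substrates was not tested. Mybpc1, the slow-type myosin-binding protein C, was at 0.76 (SE 0.33), and Ankrd2, a stretch-responsive protein of slow fibres, at 1.01 (SE 0.73). The translation factor Eif3f was at -0.40 (SE 0.22) and the fast troponin Tnnt3 at -0.47 (SE 0.34). When the covariate was the slow fibre mean 7 of the 12 were higher, and 8 when it was the macrophage mean.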

How the data were processed

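Polyadenylated RNA was sequenced with a TruSeq Stranded mRNA library kit, per the labels' protocols. The submitters' processing notes name mm10 and the tools STAR 2.6.1c, bcl2fastq, Subread 1.5.1 and its featureCounts. Which annotation release and strand setting were used is not given in the sources used here. Bases shared with antisense genes are therefore uncertain, 7.78% of the exonic bases of Foxo1 and 2.67% of those of Fbxo32 in GENCODE M21. The deposited table holds a read count per gene and library, and the FPKM that the authors derived from it, which equalled count over listed length plus 1 base and column total. Groups came from the phenotype label, and replicate numbers are only names. P-values measure the spread between mice.

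The counts went through edgeR 4.0.16 in R 4.3.3: filterByExpr (minimum count 10, total 15), TMM factors from 0.912 to 1.13, robust quasi-likelihood tests, two-sided, with Benjamini-Hochberg adjustment over all 15583 genes and a threshold of 0.05. DESeq2 1.42.0 and limma 3.58.1 were used in alternatives. Fits were tested on simulated data. CPM at the floor of 3 reads was 0.0783 to 0.0929, far below every member. Log2 CPM used a prior count of 2, and log2 FPKM a pseudocount of 0.1 or 1. All 10 members were named, with up to 4 genes of smallest p from each other list and, for Fbxo32 and Trim63, the 5 most alike genes with a mean CPM of at least 1. Some genes that this rule names are not reported here. Members and lists were chosen with earlier results of these data known.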

Additional observations from a re-analysis of the deposited data

How the results depend on the processing

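Across 18 alternatives to the edgeR fit, 0 members passed the adjusted threshold in any. Fbxo32, Trim63, Foxo3 and Fbxo21 kept their direction in all 18. The number of all genes called was 0 in edgeR with 1159 at an unadjusted p below 0.05, 4 with DESeq2 size factors, 109 with the DESeq2 test and 29 without a low-count filter. It ran from 0 to 24 when a library was left out, 24 without knockout replicate 1 and 6 without knockout replicate 2. Scaling by library totals alone shifted all genes by 0.10 and raised the share of higher estimates from 52.9% to 65.3%. Under it Fbxo31 was at 0.086, and at 0.072 with log2(FPKM + 0.1) and 0.069 with log2(FPKM + 1).

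With the slow fibre covariate the direction turned for Foxo1 (0.41), Foxo4 (0.0087), Fbxo31 (0.029) and Nedd4 (0.034). With the macrophage covariate it turned for Foxo1 (0.044), Fbxo30 (-0.046) and Nedd4 (0.0049). Leaving out a library gave -0.11 to 0.029 for Fbxo31, -0.11 to 0.15 for Traf6, -0.34 to 0.035 for Nedd4, -0.45 to 0.072 for Foxo1 and -0.042 to 0.22 for Fbxo30. The cause was not tested. Of the correlations, Foxo4 with Fbxo32 and with Trim63 turned to -0.462 and -0.301, and Foxo3 with Trim63 to -0.172, without the 2 libraries farthest from the median. Fbxo32 with Trim63 was 0.9998 there, over 4 libraries and so without a test, and 0.971 on log2(FPKM + 0.1), where rho did not pass. No paired analysis was possible because the labels give no replicate numbers shared between groups. The interval of each member limits what 3 mice a group can show.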

Other observations

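Among the genes whose levels followed Fbxo32 most closely over the 6 libraries, of 11370 genes with a mean of at least 1 CPM (pseudogenes and predicted gene models left out) were the myelin and lymphocyte protein gene Mal (r = 0.998), the Mediator subunit gene Med25 (0.993), the choline transporter Slc44a1 (0.989) and the translation factor Eif5 (0.987). For Trim63 they were Pde3a, a phosphodiesterase (0.991), Dcaf10 (0.9905), Tapt1 (0.98998), Slc44a1 (0.987) and the protease Adamts9 (0.986). Trim63 ranked 11 for Fbxo32, and Fbxo32 ranked 17 for Trim63. These correlations were the highest of many over 6 libraries and are descriptions only. Since both ligases had lower estimates in knockout, this choice of genes also fixes the direction of theirs, which ran from -0.18 for Slc44a1 to -1.12 for Mal.

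Genes induced by denervation, a state in which Fbxo32 and Trim63 are known to rise, had 3 of 9 estimates higher and 6 lower, with 0 past the adjusted threshold in edgeR and 1 at an unadjusted p below 0.05, beside 7.44% of all genes. The median of -0.16 was 0.04, with 5 higher, without vehicle replicate 1. Leaving out knockout replicate 1 gave -0.52, and leaving out vehicle replicate 2 gave -0.34. With the slow fibre covariate 8 of 9 were lower (median -0.36). Myog, a myogenic factor that can activate both ligases after denervation, stood at 14.6, 7.93 and 15.6 CPM in knockout and 25.3, 25.0 and 38.8 CPM in vehicle replicates (log2 fold change -1.22, SE 0.28, edgeR adjusted p = 0.478, and 0.0133 in DESeq2). It was the 1 gene of 9 that was lower without overlap, beside 6.48% of all genes. Gadd45a was at -1.09 (SE 0.49), with vehicle replicate 3 highest at 81.3 CPM. The acetylcholine receptor subunit Chrna1 was at 0.47 (SE 0.34) and Runx1 at -0.58 (SE 0.46).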
